A study of Mus musculus with 50 samples.

Results

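The endoplasmic reticulum (ER) stress response was followed through 10 genes, Hspa5, Hsp90b1, Calr, Canx, Ddit3, Atf4, Atf6, Xbp1, Herpud1 and Dnajb9. They were taken by symbol from a table of 35717 genes measured in mouse left ventricle. In the table, 11 rows carry one of these symbols, because Ddit3 occurs under a pair of identifiers. The second Ddit3 row (ENSMUSG00000116429) had 2 counts in all, in 2 of 50 libraries, and was not tested, so every value below is that of the first. All 10 genes were tested.

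The ER is where secreted and membrane proteins, collagen among them, are folded. When unfolded protein builds up there, the sensors ATF6, IRE1 and PERK start the unfolded protein response: cleaved ATF6 and spliced XBP1 switch on chaperones and the degradation machinery, and PERK slows translation while favouring ATF4 and, under lasting stress, CHOP. In the heart this response is known from pressure overload and ischaemia. The question followed here was whether hearts with more matrix transcripts also carry more of these transcripts.

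The mice were of the C57BL/6J background and 40 weeks old. Tg mice carried a transgene for cardiomyocyte overexpression of LARP6, an RNA-binding protein that binds collagen mRNAs, and their littermates without it were wild type (WT). Pumps delivered sterile saline or Ang II (angiotensin II, which raises blood pressure), the latter at 1000 ng/kg/min, and hearts were taken at day 21. This gave 11 WT saline (5 female, 6 male), 14 WT Ang II (7 female, 7 male), 12 Tg saline (6 female, 6 male) and 13 Tg Ang II (7 female, 6 male) libraries. The labels name neither the transgene's promoter nor the founder line, and that the libraries come from separate animals rests only on their distinct numbers. In whole-tissue RNA, fewer cells of a type and less RNA per cell cannot be told apart.

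Total counts ran from 53877439 to 91579342 per library, and mitochondrial transcripts took 28.06% to 38.81% of them. Their share tended to be lower in Tg libraries. Under saline it was 32.59% to 38.76% in WT and 28.06% to 35.05% in Tg. Under Ang II it was 30.07% to 38.81% in WT and 29.12% to 33.29% in Tg. The part of this in the differences below was not tested. Larp6, the overexpressed gene, had a median of 32.2 scaled FPKM in WT saline (5.61 to 63.7) and 978 in Tg saline (444 to 1631), where scaled FPKM is the authors' length-normalised value divided by a scaling factor per library. It had a median of 37.8 in WT Ang II (19.6 to 1004) and 948 in Tg Ang II (588 to 1180). The value of 1004 belongs to library 329, labelled a WT Ang II male, whose column in the table carries the letters of a Tg heart. Library 847, labelled a Tg Ang II male, carries WT letters, and its Larp6 level was 1119. Both stay under their labels, and results that rest on them are also given without them.

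Short stretches of the promoters are shown first, because several of these genes are textbook targets of ATF6 and XBP1 through the ER stress element, CCAAT and CCACG with 9 bases between them. RefSeq promoter windows on GRCm38.p6, from 250 bases before to 50 bases after a transcript's start, were found for 9 of the 10 genes, all but Atf6. Each stretch is written 5′ to 3′ on the gene's own strand, and capitals mark the motif with its spacer; where the motif lies on the other strand its reverse complement is in capitals.
Hspa5, chr2:34772020-34772048, plus strand, motif starting 65 bases before the start: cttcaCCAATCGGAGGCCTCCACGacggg
Hsp90b1, chr10:86705633-86705661, minus strand, motif starting 212 bases before the start: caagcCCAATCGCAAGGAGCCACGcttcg
Hsp90b1, chr10:86705528-86705556, minus strand, motif starting 107 bases before the start, reverse complement: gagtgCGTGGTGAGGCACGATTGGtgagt
Calr, chr8:84847070-84847098, minus strand, motif starting 162 bases before the start, reverse complement: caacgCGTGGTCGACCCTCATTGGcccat
Canx, chr11:50325795-50325823, minus strand, motif starting 145 bases before the start: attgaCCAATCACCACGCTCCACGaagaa
Herpud1, chr8:94386372-94386392, plus strand, shorter ERSE-II motif starting 52 bases before the start: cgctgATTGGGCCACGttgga

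The full element, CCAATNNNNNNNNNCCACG on either strand with no mismatch, was present in 4 of the 9 windows, those of Hspa5, Hsp90b1, Calr and Canx. It was present in 39 of all 32851 windows, or 0.119%. The related ERSE-II motif, ATTGGNCCACG, was in the Herpud1 window only among these genes and in 12 windows overall (0.0365%). The core of the XBP1 site, TGACGTGG, was in none of the 9 and in 0.676% of all windows. A composite site of the ATF4 type, TGATGNAA, was in the Herpud1 window and in 3.97% of all windows. These are matches of letters, not measurements of binding. RefSeq starts and the gene boundaries of the count table differ for some genes, Hspa5 among them.

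All 10 transcripts were well measured, with mean counts from 1107 per library (Ddit3) to 23945 (Hspa5). The abundant ones were the folding and quality-control genes Hspa5 at a mean of 75.6 scaled FPKM over the 50 libraries, Herpud1 at 73.2, Calr at 66.2, Hsp90b1 at 61.6 and Canx at 37.5. The transcription factors and Dnajb9 were lower, from 23.3 for Atf4 to 8.56 for Ddit3. Canx and Calr varied least within groups, with coefficients of variation of 6.84% and 7.78%. Herpud1 varied most, at 30.0%, and its highest library stood 4.72 times above its lowest.

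**Figure D1:**
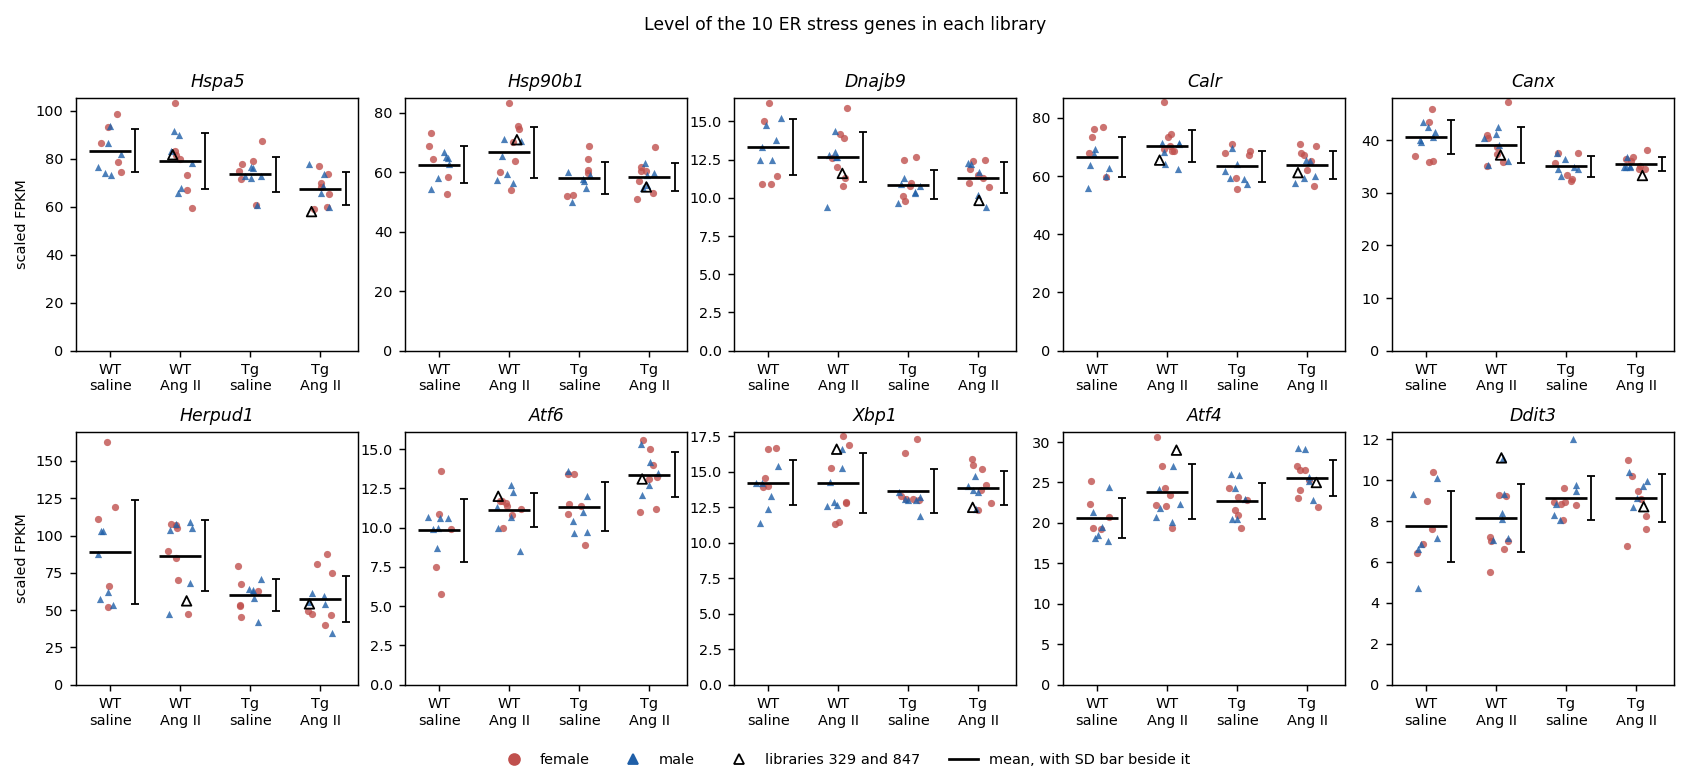
Level of each of the 10 genes in every library, in scaled FPKM, for the 4 combinations of genotype and treatment. Circles are female and triangles male libraries, open triangles are libraries 329 and 847, lines mark group means and the bars beside them the SD. The groups overlap for every gene, with Herpud1 reaching 163 in WT saline and 34.6 in Tg Ang II.

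The lumenal chaperones were taken first. Hspa5 encodes BiP, the main ER chaperone of the HSP70 family and the usual read-out of ER stress. Its level was 73.1 to 98.4 in WT saline (median 81.7 scaled FPKM) and 60.7 to 87.4 in Tg saline (median 73.7). Under Ang II it was 59.4 to 103.0 in WT (median 80.8) and 57.9 to 77.9 in Tg (median 68.2). The Tg libraries were the lower ones under both treatments: 11 of 12 Tg saline and 13 of 13 Tg Ang II libraries lay below the median of the matching WT group, with overlap of the groups.

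Hsp90b1 encodes GRP94, the ER chaperone of the HSP90 family. It ranged over 52.6 to 73.2 in WT saline (median 64.4 scaled FPKM), 54.2 to 83.4 in WT Ang II (67.8), 50.0 to 69.0 in Tg saline (58.4) and 51.1 to 68.4 in Tg Ang II (59.0). Again Tg lay lower, with 12 of 13 Tg Ang II libraries below the WT Ang II median.

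Calr and Canx encode calreticulin and calnexin, the soluble and the membrane-bound lectin that hold newly made glycoproteins until they are folded. Calr medians were 67.7 in WT saline (56.0 to 77.0 scaled FPKM), 69.7 in WT Ang II (62.3 to 85.4), 62.9 in Tg saline (55.7 to 71.0) and 65.1 in Tg Ang II (56.6 to 71.0). Canx medians were 40.7 in WT saline (35.8 to 46.0), 38.9 in WT Ang II (35.2 to 47.3), 34.8 in Tg saline (32.2 to 37.6) and 35.1 in Tg Ang II (33.3 to 38.1). The separation was clearest for Canx, with 12 of 12 Tg saline libraries below the WT saline median and 8 of them below the lowest WT saline library.

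Among the transcription factors, Atf6 encodes the membrane-anchored sensor, Atf4 the factor whose translation PERK favours, Ddit3 its target CHOP, and Xbp1 the substrate of IRE1. Atf6 medians were 9.98 in WT saline (5.76 to 13.6 scaled FPKM), 11.3 in WT Ang II (8.54 to 12.7), 11.2 in Tg saline (8.91 to 13.6) and 13.2 in Tg Ang II (11 to 15.6). Atf4 medians were 19.5 in WT saline (17.8 to 25.2), 22.9 in WT Ang II (19.4 to 30.6), 22.9 in Tg saline (19.4 to 26.1) and 25.3 in Tg Ang II (22.0 to 29.3). For both, WT saline was the lowest group and Tg Ang II the highest.

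Ddit3 medians were 7.18 in WT saline (4.71 to 10.4 scaled FPKM), 7.69 in WT Ang II (5.51 to 11.1), 8.88 in Tg saline (8.05 to 12) and 9.14 in Tg Ang II (6.79 to 11). Xbp1 medians lay between 13.1 and 14.2 in all 4 groups, with libraries from 11.3 to 17.5. Ddit3 was thus higher in the Tg groups, with 12 of 12 Tg saline libraries above the WT saline median, and Xbp1 showed no order beyond its spread. These are gene-level sums, so Xbp1 splicing and ATF6 cleavage, the activating steps, were not analysed here. Ddit3 overlaps Mars on the other strand, Herpud1 overlaps Gm15890 on the other strand and Hsp90b1 overlaps the pseudogene 1810014B01Rik. The strand setting of the counting is not given in the sources used here, so shared reads may not be told apart.

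Herpud1 and Dnajb9 belong to the clearance side. Herpud1 encodes HERP, a membrane protein of the complex that draws misfolded proteins out of the ER for degradation, and Dnajb9 encodes ERdj4, a BiP co-chaperone. Herpud1 medians were 87.3 in WT saline (52.1 to 163 scaled FPKM), 96.8 in WT Ang II (47.4 to 109.0), 62.5 in Tg saline (41.9 to 79.8) and 54.2 in Tg Ang II (34.6 to 87.7). Dnajb9 medians were 13.3 in WT saline (10.9 to 16.2), 12.7 in WT Ang II (9.41 to 15.9), 10.8 in Tg saline (9.63 to 12.7) and 11.5 in Tg Ang II (9.42 to 12.5). Under each treatment every Tg library lay below the WT median for both genes.

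In Tg against WT hearts under saline, 4 of the 10 genes fell; none was called higher in this fit, though Atf6 and Ddit3 narrowly missed the threshold and were called higher in other settings. Canx fell by 0.21 ± 0.04 on the log2 scale (SE; adjusted p = 0.0001), Dnajb9 by 0.29 ± 0.07 (adjusted p = 0.00064), Herpud1 by 0.56 ± 0.17 (adjusted p = 0.0065) and Hspa5 by 0.18 ± 0.07 (adjusted p = 0.036), in edgeR's quasi-likelihood test with Benjamini-Hochberg adjustment over 11628 genes. As percentages these changes are -13.5%, -18.3%, -32.4% and -11.9%. Of all genes tested, 20.2% were called lower and 20.4% higher in this comparison, against which the 4 lower and 0 higher of 10 are to be read. The 6 others had adjusted p from 0.052 (Atf6, log2 difference 0.21 ± 0.09) and 0.059 (Ddit3, 0.23 ± 0.10) to 0.45 (Xbp1). Atf6 was called higher in 9 of 12 other settings (differences 0.21 to 0.35 over all 12) and in 6 of 50 fits that each left out 1 library, and Ddit3 in 6 of the 12 (0.19 to 0.37) and 6 of the 50. Atf4 was called in 2 of the 50, without WT saline female 2 or male 2, and with library size alone as the scaling. For Atf6 the 6 left-out libraries were WT saline female 2 or 3, Tg saline female 6, Tg saline male 3 or 6 and WT Ang II male 2, and for Ddit3 WT saline female 2 or 4, WT saline male 2 or 5 and Tg saline male 4 or 5. The median log2 difference over the 10 genes was -0.09, beside 0.00 over all genes tested.

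The Hspa5 call under saline was the least firm. It was lost when any of 7 of the 50 libraries was left out (Tg saline female 1 or 4, Tg saline male 5, WT saline female 3 or 5, WT saline male 1 or 4), with an adjusted p of at most 0.085. It was also lost without the FPKM filter (adjusted p = 0.076) and with the library-number runs as a block (adjusted p = 0.055). When counts were scaled by library size alone, a setting that moves the median gene by 0.136 on the log2 scale in this comparison, Hspa5 was at -0.05 (adjusted p = 0.56) and Canx at -0.07 (adjusted p = 0.15). Hsp90b1, Calr and Xbp1 changed sign there, none of them called in either setting. Across all genes that scaling called 4843 higher and 928 lower, in place of 2376 and 2344. Herpud1 and Dnajb9 kept their saline calls under every setting tried.

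Under Ang II, 7 of the 10 genes differed between Tg and WT hearts. The 4 genes with an ER stress element fell: Hspa5 by 0.23 ± 0.07 on the log2 scale (adjusted p = 0.0066), Hsp90b1 by 0.19 ± 0.06 (adjusted p = 0.0083), Calr by 0.14 ± 0.04 (adjusted p = 0.009) and Canx by 0.14 ± 0.04 (adjusted p = 0.0048), by the same edgeR test. Herpud1 fell by 0.60 ± 0.16 (adjusted p = 0.0024), a change of -34.1%, and Dnajb9 by 0.17 ± 0.06 (adjusted p = 0.036). Atf6 rose by 20.4% (log2 difference 0.27 ± 0.08, adjusted p = 0.0082), and 10 of 13 Tg Ang II libraries exceeded the highest WT Ang II library. Of all genes tested, 16.4% were called lower and 16.4% higher here, beside 6 lower and 1 higher of the 10.

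Ddit3 (0.17 ± 0.09, adjusted p = 0.15), Atf4 (0.10 ± 0.06, adjusted p = 0.23) and Xbp1 (-0.04 ± 0.06, adjusted p = 0.69) did not pass the edgeR test under Ang II in the main fit. With library size alone as the scaling, the calls of Hspa5 (-0.14), Hsp90b1 (-0.10), Calr (-0.06), Canx (-0.05) and Dnajb9 (-0.08) ended, while Herpud1 and Atf6 stayed called. Ddit3 and Atf4 were then called higher in Tg hearts. Over the 12 other settings Ddit3 stayed uncalled in 10 (differences 0.163 to 0.265) and Atf4 in 11 (0.071 to 0.18). Dnajb9 also missed the threshold without libraries 329 and 847 (-0.16, adjusted p = 0.057) and without the FPKM filter (-0.17, adjusted p = 0.069), and it kept its call in 40 of 50 fits that each left out 1 library. The 10 that lost it left out Tg Ang II female 1 or 4, Tg Ang II male 1, 5 or 6, WT Ang II female 4, 5 or 6, or WT Ang II male 3 or 7, with adjusted p of at most 0.08. The genotype comparisons under saline and under Ang II share no libraries, but each shares groups with the Ang II comparisons below.

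**Figure D2:**
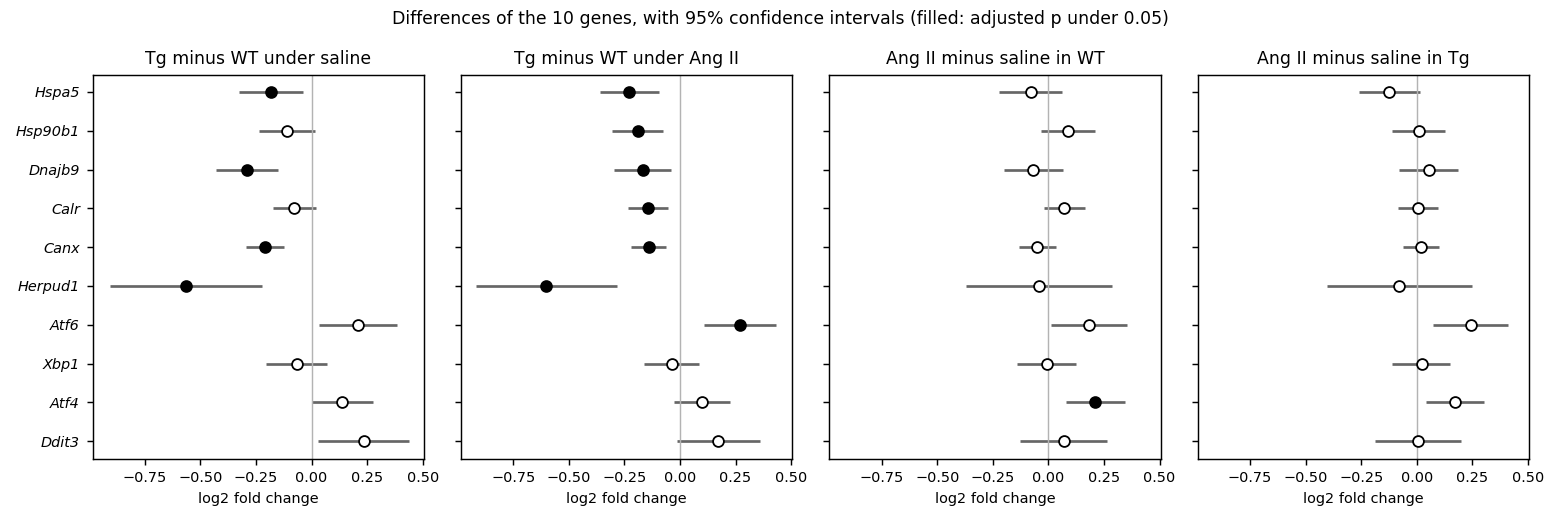
Log2 difference of each gene in the comparisons of genotype and of treatment, with 95% confidence intervals from edgeR and filled points for adjusted p under 0.05. Herpud1 lies furthest below 0 in both genotype comparisons, at -0.56 and -0.60, and Atf6 above 0 in all 4.

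Few of these transcripts were called for Ang II, at counts near the shares over all genes. In WT hearts Atf4 rose by 15.7% (log2 difference 0.21 ± 0.07, adjusted p = 0.02 by edgeR's quasi-likelihood test with Benjamini-Hochberg adjustment), with 13 of 14 Ang II libraries above the saline median. It was 1 gene of 10, beside 18.6% of all genes tested. The Atf4 call was lost without libraries 329 and 847 (0.18, adjusted p = 0.05), and it was lost with the library-number runs as a block (adjusted p = 0.054). Atf6 (0.18 ± 0.09, adjusted p = 0.13) did not pass, and Hspa5, the usual read-out, was at -0.08 (adjusted p = 0.45).

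In Tg hearts 0 of the 10 genes were called for Ang II, where 8.93% of all genes were. At an unadjusted p under 0.05 there were 2, Atf6 (0.24 ± 0.08, adjusted p = 0.06) and Atf4 (0.17 ± 0.07, adjusted p = 0.09), and each had 11 of 13 Ang II libraries above the saline median. Atf6 stayed uncalled in 8 of 12 other settings (differences 0.15 to 0.26 over all 12) and Atf4 in 10 of 12. Of 50 fits that each left out 1 library, 7 called Atf6 and 0 called Atf4. DESeq2 called 1 of the 10. The Ang II response did not differ detectably between genotypes for any of them: estimates of the difference ran from -0.08 to 0.12, their 95% intervals reached from -0.5 (Herpud1) to 0.43, and the adjusted p values from 0.67 to 0.97. For the difference of responses 0.043% of all genes, 5 in number, were called, 0 of the 10 had an unadjusted p under 0.05, and DESeq2 called 40 genes, 0 of the 10 among them.

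Males and females differed in Calr, which was lower in males by a change of -7.26% (log2 difference -0.11 ± 0.03, adjusted p = 0.04 by edgeR), and in none of the other 9. Of all genes 4.42% were called for sex. The Calr call held in 30 of 50 fits that each left out 1 library. No interaction of sex with genotype or with Ang II was called for any of the 10, with lowest adjusted p values of 0.896, 0.801 and 0.901 for the 3 interactions tested.

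The fibrillar collagen transcripts Col1a1, Col1a2 and Col3a1 rose in Tg hearts in both genotype comparisons, 3 of 3 by the edgeR test. Median Col1a1 was 6.82 scaled FPKM in WT saline, 13.9 in WT Ang II, 13.3 in Tg saline and 19.9 in Tg Ang II, and Col1a2 and Col3a1 had the same lowest and highest groups. To ask whether a heart with more collagen transcripts than its group also had more ER stress transcripts, a collagen level (the mean log2 level of Col1a1, Col1a2 and Col3a1) was added to the model beside the 8 means of genotype, treatment and sex. Deviations of this level from the group means ran from -0.834 to 1.12.

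Within groups 0 of the 10 genes rose with the collagen level and 2 fell with it, Herpud1 by 0.58 ± 0.11 log2 units per log2 unit of collagen (adjusted p = 0.0001) and Dnajb9 by 0.23 ± 0.04 (adjusted p = 0.00013), by edgeR's quasi-likelihood test. Of all genes 8.97% were called lower and 9.87% higher with it. Hspa5 had a slope of -0.01 (95% interval -0.13 to 0.11), Hsp90b1 0.03 (-0.08 to 0.13), Calr 0.04 (-0.04 to 0.11) and Xbp1 0.02 (-0.10 to 0.13). Canx was at -0.09 ± 0.03 (adjusted p = 0.05), and Ddit3, Atf4 and Atf6 did not pass. With library size alone as the scaling, 5 of the 10 were called, among them Calr (0.12 ± 0.03, adjusted p = 0.004), Hsp90b1 (0.12 ± 0.05, adjusted p = 0.047) and Atf4 (0.14 ± 0.05, adjusted p = 0.029), which then rose with collagen, and 4302 of all genes were called higher and 311 lower, in place of 1147 and 1043; the median gene moved by 0.091.

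**Figure D3:**
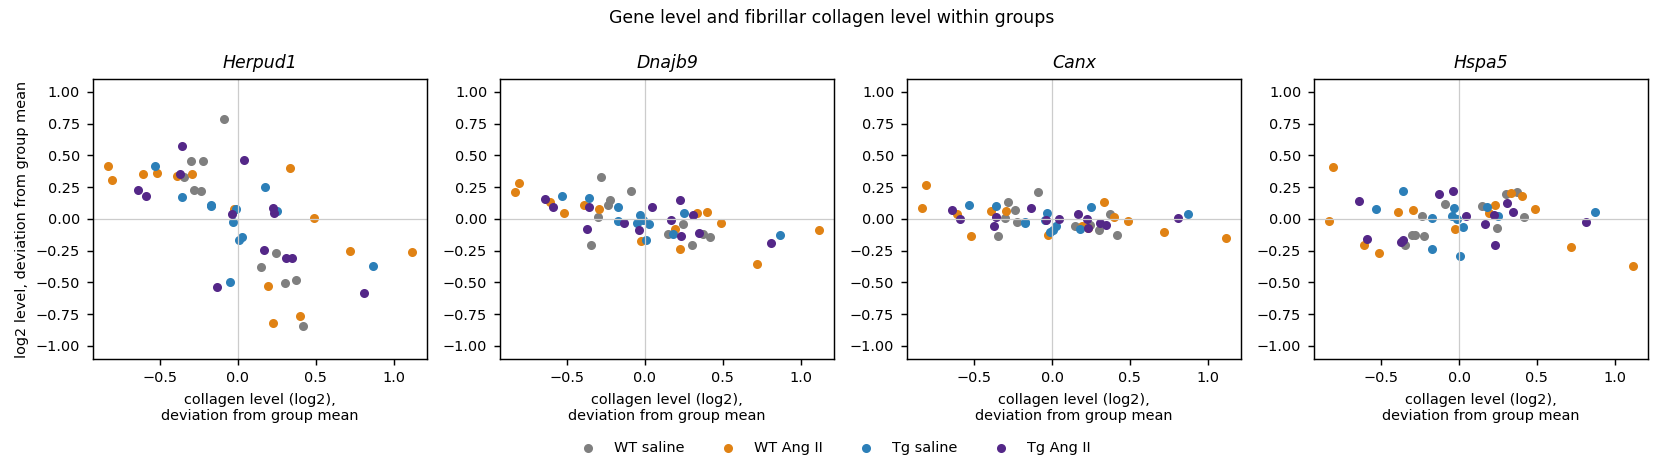
Deviation of Herpud1, Dnajb9, Canx and Hspa5 from the group mean (log2 scaled FPKM) against the deviation of the collagen level from its group mean (log2), with 1 point per library and the groups in colours. Herpud1 and Dnajb9 slope downward, at -0.58 and -0.23 per unit, and the Hspa5 panel is close to flat, at -0.01.

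The genes fell into sets that moved together from heart to heart. Deviations from the 8 group means of log2(scaled FPKM + 1) were compared over the 50 libraries. After Benjamini-Hochberg adjustment 12 of 45 pairs were correlated (two-sided permutation test within groups, 100000 resamples). That test asks only whether the genes of a pair are related. The share of correlated pairs among all tested genes was not computed, so 12 of 45 cannot be read as particular to ER stress genes. Hspa5 and Hsp90b1 were closest, with Pearson r = 0.85 and Spearman rho = 0.80 (permutation p = 1e-05, the smallest the permutations can give; adjusted p = 9e-05), and r = 0.82 without the 2 libraries farthest from the median. Xbp1, called in no group comparison, went with Hsp90b1 (r = 0.79, rho = 0.78, adjusted p = 9e-05 for each by permutation) and with Hspa5 (r = 0.74, rho = 0.69, adjusted p = 9e-05 for each by permutation). Calr went with Hsp90b1 (r = 0.75, rho = 0.74), Hspa5 (r = 0.69, rho = 0.66) and Xbp1 (r = 0.58, rho = 0.60), with adjusted permutation p values of at most 0.00017.

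Canx was nearest to Dnajb9 (r = 0.73, rho = 0.72, adjusted permutation p = 0.00013), and Herpud1 went with Dnajb9 (r = 0.61, rho = 0.65, adjusted permutation p = 0.00039). Canx and Hspa5 were correlated at r = 0.55 and rho = 0.47 (adjusted permutation p = 0.0027). Hsp90b1 and Canx, Calr and Canx, and Atf6 and Herpud1 passed by r (adjusted permutation p = 0.045, 0.027 and 0.038) but not by rho (0.095, 0.095 and 0.17). For Atf6 and Herpud1 r was 0.28 without the 2 farthest libraries, so that relation rests on them. In the same way r fell from 0.445 to 0.351 for Hsp90b1 and Canx and from 0.438 to 0.295 for Calr and Canx. Ddit3 and Atf4 were not in any called pair.

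**Figure D4:**
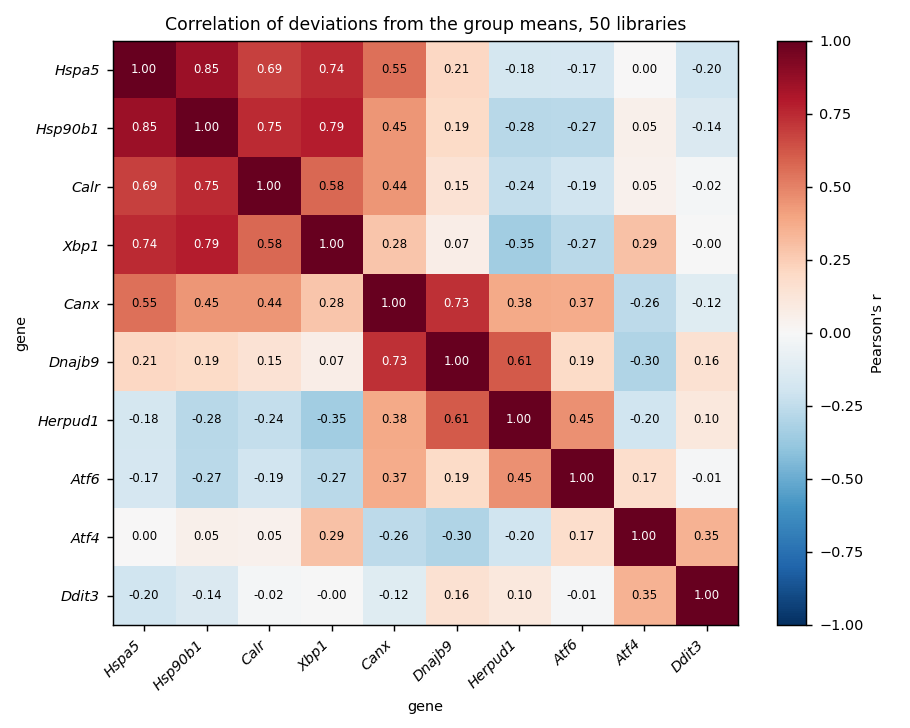
Pearson correlation of each pair of the 10 genes over 50 libraries, on deviations from the 8 group means. Hspa5, Hsp90b1, Calr and Xbp1 form a block with r from 0.58 to 0.85, and Herpud1 and Dnajb9 stand outside it.

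Over all tested genes, the ones most like each of the 10 within groups were as follows, given as a description by r. Hspa5, Hsp90b1 and Xbp1 had Manf, a secreted ER stress protein, among their closest (r = 0.76, 0.79 and 0.83), and Hsp90b1, Calr and Xbp1 had Pdia6, a disulfide isomerase of the ER (r = 0.85, 0.74 and 0.75). Atf6 had Mypn (r = 0.84) and Synpo (0.83), which encode cytoskeletal proteins, among its closest. Herpud1 was closest to Fbxo31 (r = 0.90), Ubr2 (0.89) and Pcnt (0.88), and Dnajb9 to Fam76a (0.75), Trip10 (0.75) and Pcmtd1 (0.73). The nearest genes of Atf4 (Frmd5, Abra and Ctla2a, each 0.67) and of Ddit3 (Rasl11b 0.65, Gabarap 0.64, Nsmce4a 0.62) were other than ER genes.

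Herpud1 and Dnajb9 also moved with the circadian clock genes, a list of 15 added after the data had been seen. Herpud1 had a correlation above 0.5 in size with 11 of the 15, among them Tef (r = 0.83), Per2 (0.81) and Npas2 (-0.74), and Dnajb9 with 9, among them Per3 (0.67) and Npas2 (-0.62). Calr and Atf6 had 1 each and the other 6 genes 0. The clock genes vary together, with 62.2% of their variance in the first principal component, so these counts are not of separate relations. The share of all tested genes with such correlations was not computed. The clock genes moved with the collagen level as well, with 8 of 15 called, beside 18.8% of all genes: Npas2, Clock and Arntl rose and Cry2, Per3, Tef, Hlf and Per2 fell. Between groups 1 of 15 was called in each genotype comparison, Hlf under saline (-33.6%) and Bhlhe41 under Ang II (25.4%), beside 40.6% and 32.8% of all genes, and 0 for Ang II. Ciart under Ang II (-40.0%, adjusted p = 0.085 by edgeR) did not pass. The hour at which tissue was taken is not given in the labels used here.

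With the first 2 principal components of the clock genes, 62.2% and 18% of their variance, added to the model, the collagen slope of Herpud1 was -0.27 ± 0.11 (adjusted p = 0.091 by edgeR), no longer called. That of Dnajb9 was -0.15 ± 0.05 (adjusted p = 0.037). The genotype differences of Herpud1 stayed called, at -0.42 ± 0.11 (adjusted p = 0.0018) under saline and -0.48 ± 0.10 (adjusted p = 0.00028) under Ang II. Those of Dnajb9 were -0.26 (adjusted p = 0.00018) and -0.13 (adjusted p = 0.039).

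**Figure D5:**
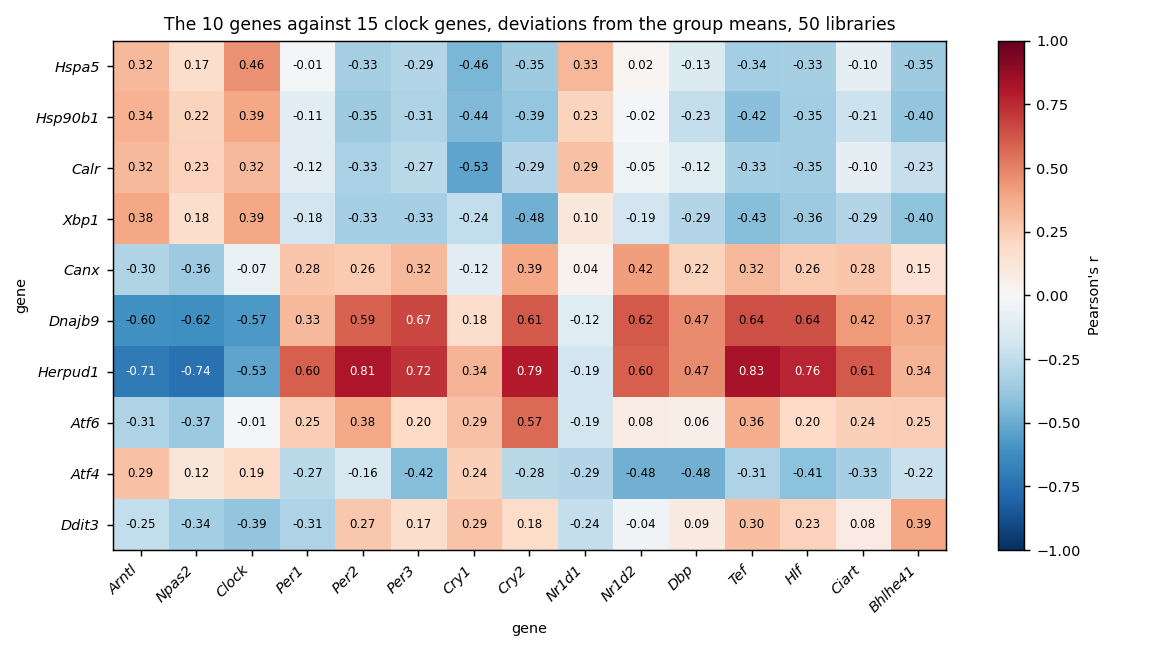
Pearson correlation of each of the 10 genes with each of 15 clock genes over 50 libraries, on deviations from the 8 group means. Herpud1 reaches 0.83 with Tef and -0.74 with Npas2, and 11 of its 15 values exceed 0.5 in size.

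Other genes of the pathway were read from lists that were written with earlier results of these data known. The counts under saline are to be read against 20.4% of all genes higher and 20.2% lower. For the ER chaperone and the export list the share called higher was near that of all genes. Their share called lower, 0 of 17 and 2 of 22, was below that of all genes. Under saline, Tg against WT, the PERK, ATF4 and CHOP targets had 8 of 19 tested genes higher and 0 lower, with a median log2 difference of 0.13. Gdf15, a stress-induced hormone, was the largest, at 2.53 ± 0.43 on the log2 scale. Its mean was 0.433 scaled FPKM in WT saline, below the filter value of 1, and 2.33 in Tg saline. The large fold of Gdf15 thus starts from a value near the floor. Nupr1, a stress-induced chromatin factor, was at 1.0 ± 0.18 and Eif4ebp1, a repressor of translation, at 0.55 ± 0.10. Ppp1r15a, which ends the PERK signal, was at 0.49 ± 0.10. Of the ER chaperones outside the 10, 4 of 17 rose and 0 fell (median 0.10), led by Txndc5, a disulfide isomerase, at 0.35 ± 0.05, and Ppib, a proline isomerase that acts on collagen, at 0.25 ± 0.06. ER-associated degradation genes had 6 of 15 higher and 0 lower (median 0.09), among them Ube2g2 at 0.27 ± 0.05 and Derl1 at 0.15 ± 0.03. So Herpud1 fell while 6 others of that machinery rose.

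Sensors and cleavage genes had 3 of 10 higher (Creb3l2, Mbtps1 and Creb3) and 0 lower, and the glycoprotein folding cycle had 2 of 8 higher (Calr3, Sdf2) and 1 lower (Ganab). The translocation and export list had 5 of 22 higher and 2 lower. Collagen-folding enzymes of the ER had 4 of 13 higher, P3h2 at 1.80 first, and 2 lower, Fkbp10 (-0.52) and P3h4 (-0.55). P3h2 was low, with a mean of 0.784 scaled FPKM in WT saline and 2.75 in Tg saline. Cytosolic chaperones had 8 of 14 higher and 0 lower, with Hsp90aa1 at 0.94 ± 0.11 and Hspa1a at 1.02 ± 0.18. Other matrix genes had 24 of 26 higher and 0 lower (median 0.82), led by Ccn2 and Mfap4.

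Under Ang II, Tg against WT, the counts were 6 higher and 2 lower of 19 for the PERK, ATF4 and CHOP targets, the lower ones being Bcl2l11 and Cebpb, beside 16.4% of all genes in each direction. They were 4 and 0 of 17 for ER chaperones, 5 and 0 of 15 for ER-associated degradation, 6 and 0 of 14 for cytosolic chaperones and 20 and 0 of 26 for other matrix genes. For Ang II in WT hearts, 8 of 19 PERK, ATF4 and CHOP targets rose and 0 fell (7 and 0 without libraries 329 and 847), Nupr1 by 0.97 ± 0.17 and Eif4ebp1 by 0.39 ± 0.09, beside 9.71% of all genes higher. In Tg hearts 1 of the 19 rose with Ang II, Nupr1, beside 4.88% of all genes. For the difference of responses between genotypes 0 of the 19 were called higher and 0 lower, beside 0.043% of all genes. With the collagen level, where 9.87% of all genes were higher and 8.97% lower, 5 of 17 ER chaperones rose and 1 fell, 3 of 10 sensors and cleavage genes rose and 0 fell, and 4 of 19 PERK, ATF4 and CHOP targets rose and 0 fell. The counts were 7 higher and 2 lower of 22 for translocation and export, 6 and 1 of 13 for collagen folding, 1 and 1 of 14 for cytosolic chaperones, and 0 and 0 for ER-associated degradation (15 tested) and the glycoprotein cycle (8 tested). All 26 of 26 other matrix genes rose with it. With library size alone as the scaling, more genes of these lists were higher; under saline they were 12 of 19 for the PERK, ATF4 and CHOP targets and 10 of 17 for ER chaperones, each with 0 lower.

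The genes whose window holds an ER stress element were also read as a list, chosen after seeing the data. Of 37 such genes 12 were tested, the 4 described above among them. Under saline 0 were higher and 3 lower in Tg hearts (Canx, Hspa5 and Pan2), and under Ang II 0 were higher and 5 lower (those 3, Hsp90b1 and Calr). The medians were -0.09 and -0.11, and 20.2% and 16.4% of all genes were lower. Outside the 4 genes described above, 1 of the 8 others fell in each comparison, Pan2. With library size alone as the scaling, 1 was higher and 1 lower under saline and 0 and 0 under Ang II.

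Transcripts used as markers of cell types differed with genotype as well. Under saline in Tg hearts, 10 of 12 fibroblast markers and 11 of 11 tested macrophage markers were higher, and 10 of 12 endothelial, 6 of 9 mural and 6 of 10 cardiomyocyte markers were lower, while 2 mural and 1 cardiomyocyte marker (Nkx2-5) were higher. Under Ang II, 6 of 12 fibroblast and 7 of 11 macrophage markers were higher, and 10 of 12 endothelial, 5 of 9 mural and 7 of 10 cardiomyocyte markers were lower, while 2 mural and 2 cardiomyocyte markers (Nkx2-5 and Actc1) were higher. Mfap5, Lum, Dcn and Col15a1, among the fibroblast markers higher under both treatments, are also counted in the list of other matrix genes. The fibroblast and matrix counts are therefore not separate. Of all genes, 20.4% were higher and 20.2% lower under saline, and 16.4% each way under Ang II. The macrophage markers Itgam and Cx3cr1 had means under the filter value of 1 in both WT groups. These were 0.445 and 0.459 scaled FPKM in WT saline and 0.542 and 0.517 in WT Ang II. Both could have entered the test through the Tg libraries, where they were higher, so their calls lend no separate weight. Fcgr1 of the same list did not pass the filter. Summed macrophage markers ran from 101 to 130 scaled FPKM in WT saline and from 155 to 439 in Tg saline, and summed endothelial markers from 189 to 277 and from 134 to 183. B and plasma cell markers, which mark cells rich in ER, summed to 0.606 to 2.8 scaled FPKM, with 0 of 10 passing the filter on low values. The part of these shifts in the differences of the 10 genes was not tested.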

How the data were processed

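Poly(A) RNA of mouse left ventricle was sequenced as paired ends from a dUTP (strand-keeping) library, per the labels' protocols. Per the submitters' processing notes, the tools were cutadapt 1.9, FastQC, HISAT2 2.0.4 and StringTie 1.3.4d; the counting tool, its strand setting and the genome build are not given in the sources used here. The deposited table holds a whole-number count and an FPKM value per gene and library, the authors' FPKM being already divided by gene length and library size. Of 35717 genes, 35599 were found in GENCODE M21 (GRCm38), 91.6% of them with the same start and end.

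The 11628 genes that reached an FPKM of 1 in 5 or more libraries were tested on the deposited counts with edgeR 4.0.16 (R 4.3.3), quasi-likelihood, with 8 group means, sexes weighted equally, median-of-ratios scaling and adjusted p under 0.05. Levels are FPKM divided by a median-of-ratios factor computed from the FPKM values of the same genes (0.776 to 1.14), not from the counts. limma 3.58.1, DESeq2 1.42.0 and scipy 1.17.1 served the alternatives and permutations. Scripts were tested on simulated data. P values are two-sided and measure the spread between these libraries. The 10 genes, lists and tests were chosen with earlier results of these data known. Named genes were the 10, 5 reference genes, up to 4 genes per list with the smallest p per comparison and the 3 genes most correlated with each of the 10. Some genes that this rule selects are not reported here.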

Additional observations from a re-analysis of the deposited data

Results flagged for a closer look

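Of 80 sets of libraries (each gene in each group of one sex), 4 held a library standing apart from the rest by Dixon's criterion; chance alone sets apart about 1 in 20. Hspa5 was 60.7 scaled FPKM in Tg saline male 5, the lowest of 6, where the next was 72.0 and the highest 76.5. Xbp1 was 11.9 in the same library, again the lowest of 6, with the next at 13 and the highest at 13.6. Calr was 85.4 in WT Ang II female 5, the highest of 7, with the next at 74.4 and the lowest at 68.8. Herpud1 was 34.6 in Tg Ang II male 5, the lowest of 6, with the next at 53.9 and the highest at 61.5.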

How the results depend on the processing

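Herpud1 in both genotype comparisons, Dnajb9 under saline and Atf6, higher in Tg hearts under Ang II, kept their calls in every alternative run. So did the collagen slope of Dnajb9. Apart from Herpud1 the called differences are small, the scaling sets the sign of several genes, and 2 libraries have conflicting labels. No paired analysis was possible because the labels give no shared replicate numbers; runs of nearby library numbers served as a block instead. For each change below the cause was not tested, except that fewer libraries or genes enter some fits.

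With a filter of FPKM 5 in 11 or more libraries, called genes numbered 2453 (main 4720) for Tg minus WT under saline, 2096 (3814) under Ang II, 1242 (2160) for Ang II in WT, 327 (514) for sex and 1247 (2190) for the collagen slope. For Ang II in Tg, 1 of the 10 was called, Hsp90b1 was -0.0010, Calr -0.0043 and Ddit3 -0.0024, and the Hspa5 slope was 0.0047. With library size alone, sex gave 1204 genes (113 higher, 1091 lower, in place of 298 and 216), the slope 4613, the difference of responses 8 and Ang II in WT 1992 higher and 478 lower (in place of 1129 and 1031). The split was 3351 and 936 (in place of 1905 and 1909) for genotype under Ang II. Of the 10, 2 were then called for Ang II in WT, 4 for genotype under Ang II and 5 for the slope. Under saline Hsp90b1 was 0.022, Calr 0.055 and Xbp1 0.064; under Ang II Xbp1 was 0.048. For Ang II in WT Canx was 0.0089, Xbp1 0.052 and Herpud1 0.015, and the slopes of Hspa5, Canx and Ddit3 were 0.081, 0.013 and 0.00498.

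With the number-run block, Ang II in Tg gave 598 genes (main 1038), sex 321, the slope 1298 and the difference of responses 0; 0 of the 10 were called for Ang II in WT and 0 for sex. Xbp1 was 0.012 for Ang II in WT, and Canx -0.017 and Dnajb9 -0.03 for Ang II in Tg. Without libraries 329 and 847, 0 of the 10 were called for Ang II in WT and 0 for sex, and 3 genes for the difference of responses (main 5). With only the libraries compared, 0 of the 10 were called for Ang II in WT and 2 in Tg. Without the FPKM filter, Ang II in Tg gave 634 genes, the difference of responses 2, sex 0 of the 10, and Xbp1 was 0.0036 for Ang II in WT. For the difference of responses DESeq2 gave 40, limma 3 with either pseudocount (1 or 0.1), and the fit without library 965 gave 2. DESeq2 called 1 of the 10 for Ang II in Tg.

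With the clock components, added after seeing the data, 15 genes were called for the difference of responses, 1329 for the slope, 2 of the 10 for Ang II in Tg and 1 for the slope. Herpud1 was then 0.036 for Ang II in WT, Hsp90b1 -0.0089 and Calr -0.009 for Ang II in Tg, and the slopes of Hsp90b1, Calr, Ddit3 and Xbp1 were -0.095, -0.035, 0.038 and -0.103. The slope was called for 635 genes in WT and 661 in Tg libraries alone; Hspa5 was 0.018 and Ddit3 0.051 in Tg alone, and Hsp90b1 -0.0015 in WT alone. On the level of other matrix genes the slope of Hsp90b1 was -0.0067 and that of Xbp1 -0.02, and without the 2 farthest libraries that of Hspa5 was 0.047.

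Leaving out 1 library at a time, called genes ranged from 656 to 1128 for Ang II in Tg and from 2 to 21 for the difference of responses. Of the 10, 3 to 7 were called under saline, 1 to 2 for Ang II in WT, 0 to 1 for Ang II in Tg and 0 to 1 for sex. For Ang II in Tg, Calr ranged from -0.015 to 0.024, Ddit3 from -0.021 to 0.047 and Hsp90b1 from -0.011 to 0.031; for Ang II in WT, Herpud1 ranged from -0.127 to 0.073 and Xbp1 from -0.038 to 0.015; the slope ranged from -0.03 to 0.048 for Hspa5 and from -0.00505 to 0.066 for Xbp1.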
